A study of Mus musculus with 11 samples.

Results

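The carboxylesterases described here are 10 mouse liver genes, Ces1b, Ces1c, Ces1d, Ces1e, Ces1f, Ces1g, Ces2a, Ces2c, Ces2e and Ces3a, chosen by gene symbol from the 31280 genes of the deposited table. Liver RNA came from wild-type (WT) C57BL/6 mice. All mice received a methionine- and choline-deficient (MCD) diet for 8 weeks, a diet that produces fatty liver and inflammation without obesity. The MCD group (5 libraries) was given water by gavage. The limonin group (6 libraries) was given limonin, a citrus limonoid, by gavage at 100 mg/kg, for 4 weeks per the labels. A group on a complete diet was not analysed here, so the values compare both groups on the deficient diet and do not show the levels of a healthy liver. The sex and age of the mice and the overlap of gavage with feeding are not given in the sources used here.

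Carboxylesterases are serine hydrolases of the endoplasmic reticulum (ER) that cleave esters, amides and thioesters. In hepatocytes they hydrolyse drugs and other foreign esters, and several also act on triacylglycerol, diacylglycerol or cholesteryl esters and take part in the release of stored lipid for very-low-density lipoprotein (VLDL). A C-terminal signal of the KDEL type, read by KDEL receptors, returns most of them to the ER, while members that lack it can be secreted. The mouse genome carries the family as tandem clusters of close copies.

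The ends of the 10 reading frames are shown because they separate members with such a signal from members without one. Each line is the last 30 coding bases with the stop codon, 5′ to 3′ on the gene's strand, from the GENCODE M21 annotation of GRCm38. The capitals mark the last 4 amino acid codons before the stop.
Ces1b: gaccctactgagcacAGAGAACACAAAtga
Ces1c: gaccctactgaacacACAGAACACAAAtga
Ces1d: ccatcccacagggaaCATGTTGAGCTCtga
Ces1e: caactgccgacagaaCACACTGAGCTGtga
Ces1f: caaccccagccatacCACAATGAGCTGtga
Ces1g: tcatcccatagggaaCATGTTGAACTGtga
Ces2a: ggttctcaggacaagCATGCAGAGCTGtag
Ces2c: gcttctcaggacaagCACAGGGAGCTTtag
Ces2e: gggtctcaggagaggCACAAAGAGTTGtag
Ces3a: agaagcaggaaagttCCAGAGGAGCTCtga

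In 7 members (Ces1d, Ces1e, Ces1f, Ces1g, Ces2a, Ces2c and Ces2e) the capitals encode histidine, any residue, glutamate and leucine, an ER retention signal of the KDEL type. Ces1b and Ces1c end in glutamate, histidine and lysine after an arginine or a threonine. Ces3a ends in proline, glutamate, glutamate and leucine. These ends lie in coding exons of chromosome 8, for example at chr8:93166255-93166284 on the minus strand for Ces1d and at chr8:104933685-104933714 on the plus strand for Ces2e.

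The bases around the catalytic serine are shown because the members differ there. In each line of 27 bases, read from the same annotation, the capitals mark the codons for glycine, any residue, serine, any residue and glycine.
Ces1b: gtctttGGGTCATCAGCAGGAggtgtc
Ces1c: atctttGGAGAGTCATCAGGGggtatc
Ces1d: atctttGGAGAGTCAGCAGGAggtttc
Ces1e: atctttGGAGAGTCAGCAGGAggtgaa
Ces1f: atctttGGAGAGTCAGCAGGAggttac
Ces1g: atcttcGGCGAGTCAGCAGGAggtgaa
Ces2a: atatttGGAGTCTCAGCAGGAggtaca
Ces2c: atttttGGCGAGTCTGCAGGTggcaca
Ces2e: atttttGGAGAGTCAGCAGGTggcaca
Ces3a: atcttcGGTAACTCTGCTGGAggcatt

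All 10 members hold this motif. In 6 of them the serine stands between glutamate and alanine, the usual form in carboxylesterases. Glutamate is replaced by serine in Ces1b, valine in Ces2a and asparagine in Ces3a, and in Ces1c a serine takes the place of the alanine. What these differences do to catalysis was not measured. For Ces1d the 27 bases lie at chr8:93187758-93187784, and for Ces2e at chr8:104929809-104929835, both inside 1 coding exon.

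The Ces1 members lie side by side on the minus strand of chromosome 8, from 93056728 (Ces1b) to 93337308 (Ces1g). The Ces2 members and Ces3a lie on the plus strand, from 104734003 (Ces2a) to 105058413 (Ces3a). Coding sequences shared 73.0% to 90.9% of bases within Ces1, 83.0% to 84.0% within Ces2 and 61.1% to 64.3% between subfamilies. Such similarity can move reads between copies. Of the 100-base windows of each member's transcript, no window of Ces1d, Ces1e, Ces1f, Ces1g or Ces2e was shared with another gene. For Ces1b and Ces1c the shares were 1.29% and 1.39%, shared with each other. Larger shares were found for Ces2a (10.7%, with the predicted gene Gm7208), Ces2c (16.0%, mainly with the pseudogene Ces2d-ps) and Ces3a (9.09%, with Ces3b). For windows of 50 bases the shares ran from 1.28% (Ces1d) to 42.2% (Ces2c), with 11.6% for Ces1b and 17.0% for Ces1c. The levels of Ces2a, Ces2c and Ces3a are therefore less certain, and to a lesser degree those of Ces1b and Ces1c. Ces3a also shares exon bases with Gm45724 on the other strand.

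Values are FPKM (fragments scaled to transcript length and library depth), which are per length, so levels of different genes can be set side by side. Depth read from the smallest FPKM steps ran from 15630000 to 19680000 fragments a library, and no library was a copy of another. The hepatocyte marker Alb was at 14080 to 31230 FPKM over the 11 libraries. Groups were compared with limma on log2(FPKM + 1) over the 10489 genes that passed a filter on low values, with p-values adjusted over all of them by Benjamini-Hochberg at a threshold of 0.05. On this scale fold changes of low genes are understated. The labels name replicates but not how they were taken, so p-values measure the spread between these libraries.

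All 10 members passed the filter. Of these, 4 rose with limonin (Ces1d, Ces1e, Ces1f and Ces2e), by 1.29-fold to 1.41-fold, and 6 were not called. Members called lower numbered 0 by limma, also at an unadjusted p under 0.05, where 4 were higher beside 12.5% of all tested genes, and 0 in the authors' deposited table. Over all tested genes, 7.24% were called higher and 18.7% lower. The median log2 fold change was 0.36 for the members and -0.07 for all tested genes. The members were chosen with earlier results of these data known, so these shares and medians are a description and not a test. By subfamily, 3 of 6 Ces1 members, 1 of 3 Ces2 members and 0 of 1 Ces3 members rose. Leaving out MCD 1 or MCD 2 brought the genes called higher from 759 to 474 and 328, and leaving out MCD 2 brought those called lower from 1957 to 1080.

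**Figure D1:**
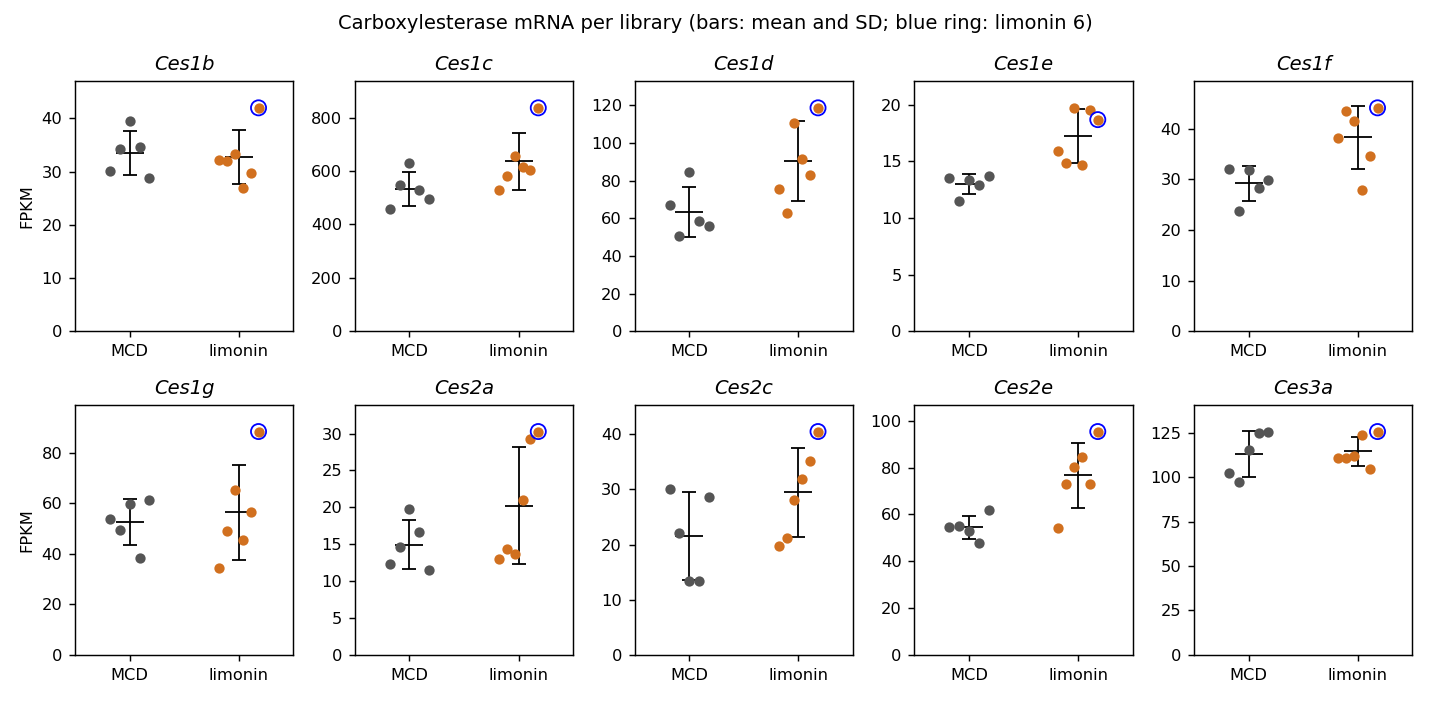
FPKM of each carboxylesterase (vertical axis, linear from 0) in the 5 MCD and 6 limonin libraries, 1 point a library, with the group mean and SD as a bar and limonin 6 ringed. Ces1e is the member in which every limonin library lies above every MCD library, and limonin 6 is the highest point in 9 of the 10 genes.

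Among the Ces1 enzymes retained in the ER, Ces1d, a triacylglycerol hydrolase known to mobilise stored fat for VLDL, was at 67.3, 50.8, 84.6, 58.6 and 56.0 FPKM in MCD 1 to 5. In the limonin libraries it ran from 62.7 to 118.7 FPKM, with a median of 87.3. The groups overlapped, with 3 of 6 limonin libraries higher than any MCD library and MCD 1 and MCD 3 within the limonin range. The means were 63.5 ± 13.3 (SD, n = 5) and 90.3 ± 21.1 FPKM (SD, n = 6). The log2 fold change was 0.49 ± 0.17 (SE), with a limma adjusted p of 0.0445. This call was close to the threshold: it was lost when any 1 of MCD 1, 2, 4 or 5 or limonin 3, 4, 5 or 6 was left out, with adjusted p up to 0.123 and log2 fold changes of 0.41 to 0.60 over all 11 omissions.

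Ces1f, another Ces1 enzyme with triacylglycerol hydrolase activity, was at 32.1, 23.8, 31.9, 28.2 and 29.9 FPKM in MCD 1 to 5. With limonin the values ran from 27.8 to 44.1 FPKM, with a median of 39.9. Limonin 4 lay inside the MCD range and the other 5 lay above it. This gave a log2 fold change of 0.37 ± 0.13 (SE), with a limma adjusted p of 0.0420, from means of 29.2 ± 3.39 (SD, n = 5) and 38.3 ± 6.24 FPKM (SD, n = 6). The call remained only without limonin 4 or limonin 5, and was lost when any of the other 9 libraries was left out, with adjusted p up to 0.124.

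Ces1e, known as egasyn, holds β-glucuronidase in the ER of the mouse liver. It was at 13.5, 11.5, 13.3, 12.9 and 13.7 FPKM in MCD 1 to 5. In the limonin group it ran from 14.6 to 19.7 FPKM, with a median of 17.3. The groups did not overlap, and Ces1e was the only 1 of the 10 members for which this held, beside 2.97% of all tested genes with every limonin library above every MCD library. The means were 13.0 ± 0.878 (SD, n = 5) and 17.2 ± 2.35 FPKM (SD, n = 6). On the log2 scale the difference was 0.37 ± 0.10 (SE), with a limma adjusted p of 0.0179. The call was kept in 10 of 11 omissions and lost without MCD 2, the lowest library, at an adjusted p of 0.0588. Gusb, which encodes β-glucuronidase and was named after its values were seen, was at 8.57 ± 2.27 FPKM in MCD and 7.66 ± 1.70 FPKM in limonin, a log2 fold change of -0.13 ± 0.16 with a limma adjusted p of 0.557.

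Ces1g, an ER enzyme whose loss in mice is known to raise liver and blood lipids, was not called. It was at 53.7, 49.6, 59.7, 38.5 and 61.3 FPKM in MCD 1 to 5. Its limonin values ran from 34.4 to 88.5 FPKM, with a median of 52.9. The limonin libraries spread to both sides of the MCD range, 2 above it and 1 below. The log2 fold change was 0.06 ± 0.20 (SE; limma adjusted p = 0.851), and it turned to -0.0789 without limonin 6, the highest library.

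The remaining pair of Ces1 genes lack the retention signal. Ces1c, the carboxylesterase secreted into mouse plasma, was at 457.9, 547.6, 632.1, 530.5 and 496.6 FPKM in MCD 1 to 5. Under limonin the level ran from 527.7 to 837.1 FPKM, with a median of 610.2. The groups overlapped over much of their range, with 2 limonin libraries above every MCD library. This gave a log2 fold change of 0.25 ± 0.13 (SE; limma adjusted p = 0.159). Ces1b, the closest copy of Ces1c, was at 30.1, 34.2, 39.5, 34.6 and 28.9 FPKM in MCD 1 to 5. With limonin the values ran from 27.0 to 42.0 FPKM, with a median of 32.0. The Ces1b groups covered nearly the same range. Its log2 fold change was -0.04 ± 0.12 (SE; limma adjusted p = 0.842), with a sign that depended on the scaling: it was 0.0617 after median-ratio scaling.

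Ces2e, a retained Ces2 enzyme, rose and kept its call when each library was left out in turn. It was at 54.6, 55.1, 52.9, 47.8 and 61.8 FPKM in MCD 1 to 5. In the limonin group it ran from 54.3 to 95.4 FPKM, with a median of 76.7. Limonin 1 lay inside the MCD range and the other 5 libraries above it. The means were 54.4 ± 5.04 (SD, n = 5) and 76.8 ± 13.8 FPKM (SD, n = 6). On the log2 scale the difference was 0.47 ± 0.13 (SE), with a limma adjusted p of 0.0175, and 0.00403 to 0.0428 over the 11 omissions. The call was lost with no filter on low values (limma adjusted p = 0.0548) and with replicate number as a block (0.0814). It was also lost without both MCD 4 and 5 (0.0501) and after scaling to hepatocyte markers (0.232).

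Ces2c, an enzyme with diacylglycerol and triacylglycerol hydrolase activity, had a log2 fold change of the same size as Ces2e, 0.47 ± 0.25 (SE), but was not called (limma adjusted p = 0.179). It was at 30.1, 22.1, 13.3, 13.4 and 28.7 FPKM in MCD 1 to 5. Its limonin values ran from 19.7 to 40.5 FPKM, with a median of 30.1. The MCD libraries split widely, MCD 3 and 4 lying under every limonin library and MCD 1, 2 and 5 among them. Ces2a was at 12.3, 14.6, 19.7, 16.6 and 11.5 FPKM in MCD 1 to 5. Under limonin the level ran from 12.9 to 30.3 FPKM, with a median of 17.7. Limonin 4, 5 and 6 lay above every MCD library and the other 3 among them. The Ces2a log2 fold change was 0.36 ± 0.23 (SE; limma adjusted p = 0.278). It was 0.23 without limonin 6, 0.24 without limonin 5 and 0.0476 without both. The Ces2c value was 0.27 without both of these libraries.

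Ces3a, the second most abundant member, lacks the histidine of the retention signal and had the smallest change of the 10. It was at 102.2, 97.0, 115.4, 124.8 and 125.4 FPKM in MCD 1 to 5. With limonin the values ran from 104.6 to 125.6 FPKM, with a median of 111.4. The limonin range fell almost wholly inside the MCD range. The log2 fold change was 0.02 ± 0.10 (SE; limma adjusted p = 0.876).

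All 4 members that rose are among the 7 with a retention signal, and 0 of the 3 members with another end were called by limma, also at an unadjusted p under 0.05. With 10 genes this is a count and not a test, and Ces1g, Ces2a and Ces2c carry the signal without being called.

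The level order was nearly the same in both groups. Ces1c was highest, at 533 ± 65.2 FPKM (SD, n = 5) in MCD and 637 ± 107 FPKM (SD, n = 6) in limonin, followed by Ces3a, Ces1d, Ces2e and Ces1g, with Ces2c, Ces2a and Ces1e lowest. In MCD the order continued with Ces1b above Ces1f, and in limonin with Ces1f above Ces1b. Neighbours in this order had overlapping ranges, except Ces1c and Ces3a in both groups and Ces3a and Ces1d in MCD. Ces1c alone made up 53.6% to 60.4% of the summed FPKM of the 10 members in MCD and 56.5% to 58.1% in limonin.

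**Figure D2:**
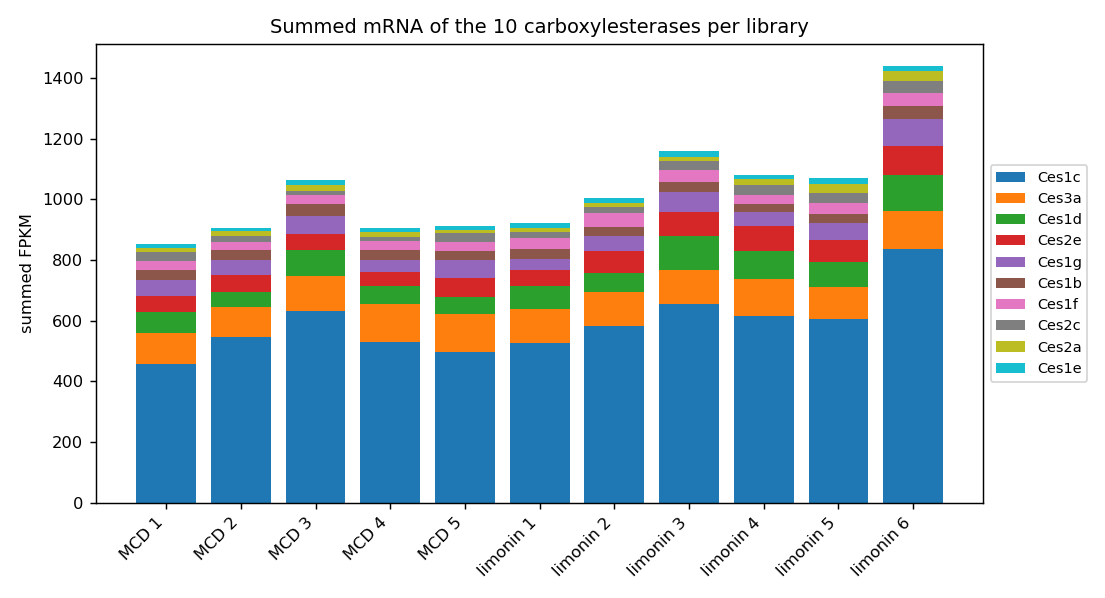
Summed FPKM of the 10 members in each of the 11 libraries (vertical axis, linear from 0), stacked by member. The sums lie between 854 and 1062 FPKM in the MCD group and between 922 and 1441 FPKM in the limonin group, and Ces1c takes more than any other member in each library.

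The summed level lay between 854 and 1062 FPKM in the MCD group and between 922 and 1441 FPKM in the limonin group, with 4 of 6 limonin libraries higher than any MCD library. As a share of all FPKM it was 0.183% to 0.225% in MCD and 0.211% to 0.326% in limonin. The total of all FPKM was lower in limonin (404000 to 462700) than in MCD (464200 to 471600), so shares differ more than levels. Limonin 6 was the highest of the 11 libraries for every member except Ces1e, which was highest in limonin 3. MCD 2 was the lowest for 4 members. The number of members called was 2 without limonin 6, also 2 without any of MCD 1, MCD 4, MCD 5 or limonin 3, 1 without MCD 2, and 3 without any of the other 5 libraries.

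Ratios within a library do not depend on its scaling; the pairs below were chosen after their values were seen. Ces2e over Ces3a was 0.383 to 0.568 in MCD and 0.490 to 0.760 in limonin, with 5 of 6 limonin libraries higher than any MCD library. Ces1d over Ces3a was 0.447 to 0.733 in MCD and 0.565 to 0.987 in limonin, with 4 of 6 above. Ces1f over Ces1b was 0.696 to 1.07 in MCD and 1.03 to 1.36 in limonin, again with 4 of 6 above. Each pair sets a called member over a member that changed little, so higher ratios in limonin follow from that choice. The ratios are a description and do not show which gene of a pair moved.

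Marker genes of liver cell types moved with the groups. Of 20 tested hepatocyte markers 7 rose and 13 were not called, and their summed level was 53780 to 66720 FPKM in MCD and 56440 to 78540 FPKM in limonin, highest in limonin 6. Of the tested markers, 11 of 13 fell for stellate cells and fibroblasts (summed 99.9 to 193.9 against 61.4 to 89.0 FPKM), 8 of 8 for cholangiocytes (78.8 to 425.0 against 28.5 to 94.7 FPKM) and 8 of 14 for macrophages and Kupffer cells (253.1 to 937.0 against 164.2 to 274.7 FPKM). For lymphocytes 4 of 5 fell (10.6 to 18.8 against 4.80 to 10.2 FPKM) and for neutrophils 2 of 3 (4.90 to 33.8 against 3.69 to 7.78 FPKM), while of 10 endothelial markers 1 rose and 1 fell (30.9 to 56.5 against 34.0 to 50.4 FPKM). Of 10 tested markers of adipocytes, pancreas, intestinal epithelium and kidney tubule together, 0 were called by limma, with 4 at an unadjusted p under 0.05. Their defining genes were low, with Adipoq at most 0.0682, Prss2 at most 1.99, Slc34a1 at most 0.0201 and Vil1 of the intestine at 0.720 to 2.65 FPKM. Their summed levels in MCD and limonin were 194.4 to 278.7 and 155.8 to 298.5 FPKM for adipocytes, 6.07 to 14.0 and 4.24 to 15.6 FPKM for pancreas, 55.9 to 109 and 36.1 to 85.7 FPKM for intestine, and 2.25 to 2.72 and 1.68 to 2.53 FPKM for kidney. Markers under 1 FPKM in every library numbered 4 of 7 for adipocytes, 7 of 11 for pancreas, 4 of 9 for intestine and 2 of 3 for kidney. These sums therefore rest on the remaining markers of each list. In bulk RNA, fewer cells of a type and less RNA per cell cannot be told apart. The part of the non-hepatocyte markers in the carboxylesterase levels was not tested.

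The libraries were also scaled to the median ratio of the hepatocyte markers, an alternative chosen after seeing the data. Limma then called 0 of 10 members, beside 1.44% of all tested genes called higher. At an unadjusted p under 0.05 limma gave 0 of 10 members, beside 2.69% of all tested genes higher. The members' median log2 fold change was then 0.13, against -0.26 for all tested genes, and 7 of 10 were positive, with Ces1g at -0.18 and Ces3a at -0.22. With the libraries as deposited the members' median stood 0.43 above that of all genes, and after hepatocyte scaling 0.39 above it. Of all calls, 27.9% were higher as deposited, 48.1% after median-ratio scaling, 52.9% after quantile normalization, 49.6% after scaling to equal sums and 4.28% after hepatocyte scaling. The first 3 of these alternative scalings called 4, 4 and 5 members, the fifth being Ces1c under equal sums. Of the genes outside the 10 described next, Ces3b, Ppara, Cyp2c29, Cyp3a13, Cyp2c50, Cyp2c37, Apoa4, Dpep1 and Kdelr3 were also called after hepatocyte scaling, while Ces2g, Aadac, Pnpla8, Mttp, Sar1b, Dgat2, Hnf4a, Aldh1a1, Abcc2 and Cyp2b9 were not. Hnf4a is itself among the markers used for this scaling, so its result there is not independent of the scaling. The scaling without Hnf4a was not tested.

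**Figure D3:**
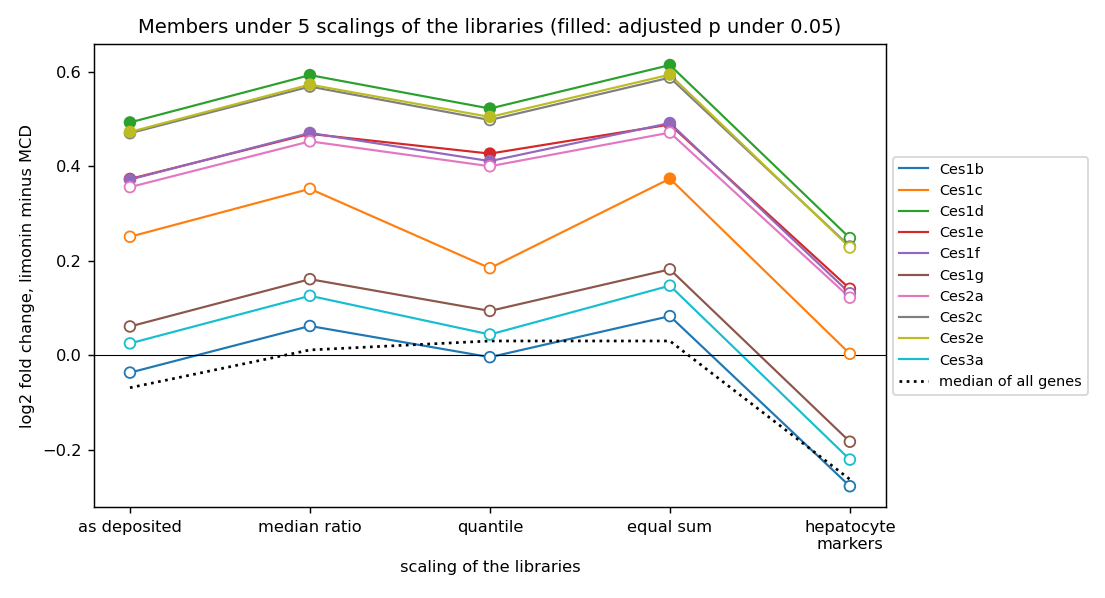
Log2 fold change (limonin minus MCD, vertical axis) of each member, 1 line a gene, under the deposited scale and 4 alternative scalings, with the median of all tested genes as a dotted line and filled points for a limma adjusted p under 0.05. The members shift together with the scaling, and after scaling to hepatocyte markers their median is 0.13 while that of all tested genes is -0.26.

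The authors' deposited table gives a q under 0.05 for 4 of the 10 members, the same 4 genes that limma called here, beside 8.57% of the 31280 genes with such a q and a higher level. Its ratios were 1.42 for Ces1d (q = 0.00819), 1.33 for Ces1e (q = 0.00155), 1.31 for Ces1f (q = 0.00731) and 1.41 for Ces2e (q = 0.000988). The authors' deposited table marks 0 of the 10 members as significant, beside 3.73% of genes marked as higher, because its mark also needs a change of at least 1.5-fold. At an unadjusted p under 0.05 the authors' deposited table has 7 of the 10 higher, beside 14.3% of the 31280 genes.

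The table holds 10 further Ces genes, of which 4 passed the filter. Of these 4, 2 rose. Ces2g was at 22.4, 25.4, 24.8, 27.5 and 26.3 FPKM in MCD 1 to 5. In the limonin group it ran from 29.0 to 41.2 FPKM, with a median of 35.2. Its groups did not overlap, with a log2 fold change of 0.47 ± 0.10 (SE; limma adjusted p = 0.00533). Ces3b, the neighbour of Ces3a, was at 4.12 ± 1.58 FPKM (SD, n = 5) in MCD and 7.13 ± 1.32 FPKM (SD, n = 6) in limonin, with 5 of 6 limonin libraries higher than any MCD library and a log2 fold change of 0.71 ± 0.19 (SE; limma adjusted p = 0.0168). Ces3b lost its call without MCD 2 (limma adjusted p = 0.0545) and with no filter on low values (0.0598). The same held with replicate number as a block (0.0621) and without both limonin 5 and 6 (0.0622). The authors' deposited table marks Ces3b as significant (ratio 1.73, q = 0.00615). Ces3b and Ces3a share part of their sequence, so the split of reads between them is uncertain.

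Ces4a (2.28 ± 1.61 FPKM in MCD, 4.08 ± 2.23 in limonin; log2 fold change 0.67 ± 0.36 (SE), limma adjusted p = 0.195) and the pseudogene Ces2d-ps (15.9 ± 2.27 and 13.1 ± 4.52 FPKM; -0.32 ± 0.22, limma adjusted p = 0.295) were not called. The Ces4a value was 0.44 without MCD 2 and 1.14, past the threshold, without both MCD 4 and 5 (limma adjusted p = 0.0398). The log2 fold change of Ces2d-ps was -0.17 without limonin 2 and -0.21 without limonin 3. Ces2c over Ces2d-ps was 0.749 to 1.76 in MCD and 1.22 to 3.53 in limonin, with 5 of 6 limonin libraries higher than any MCD library. Ces2c and Ces2d-ps share part of their sequence, so the split of reads between them, and with it this ratio, is uncertain. Ces1a, Ces1h, Ces2b, Ces2f, Ces2h and Ces5a did not pass the filter and stayed under 1 FPKM in each library.

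**Figure D4:**
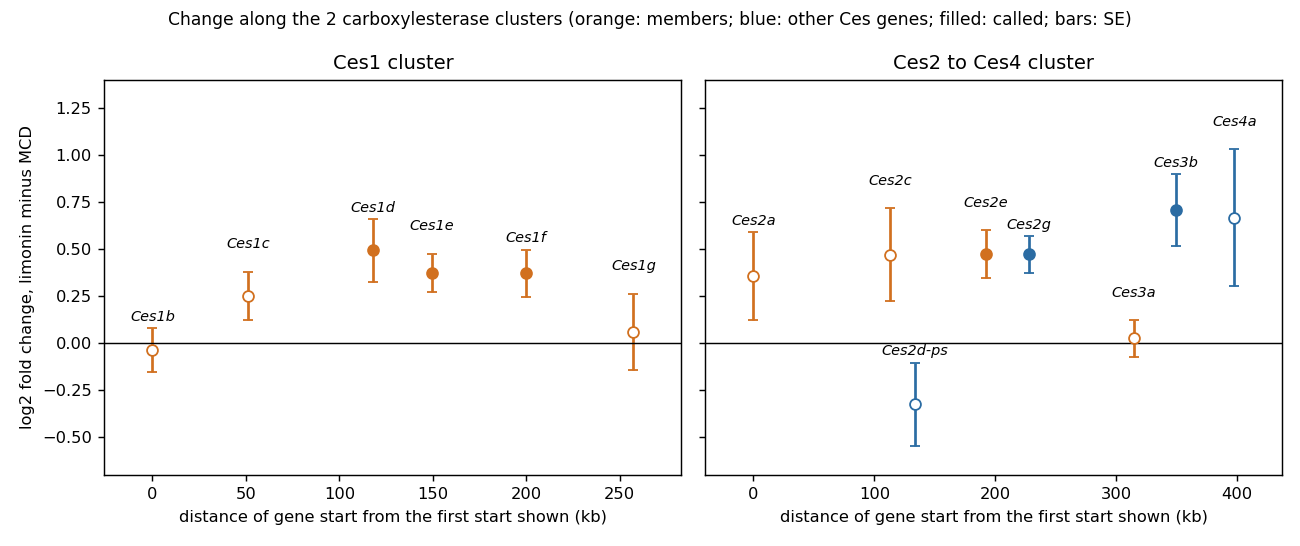
Log2 fold change (limonin minus MCD) with its SE for the tested Ces genes against the distance of the gene start from the first start shown (horizontal axis, kb) in the Ces1 cluster and the Ces2 to Ces4 cluster. Orange points are members and blue points other Ces genes. Ces1d, Ces1e and Ces1f are neighbours among the Ces1 genes. Ces1c at 0.25 and then Ces1b at -0.04 lie on one side and Ces1g at 0.06 on the other. The called genes of the other cluster are Ces2e, Ces2g and Ces3b, with Ces3b at 0.71.

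Ces1d, Ces1e and Ces1f lie next to each other within the Ces1 cluster, between Ces1c (0.25) and Ces1g (0.06), which were not called. Ces1a and Ces1h, at the ends of the cluster, were not tested. Promoters were examined for the 7 members with a RefSeq entry (build GRCm38.p6, none for Ces1d, Ces1f and Ces3a). The windows of Ces1e and Ces2e, the called members with an entry, are shown because their genes rose, as the 250 bases before the start, 5′ to 3′ on the gene's strand, at chr8:93229620-93229869 (minus) and chr8:104926010-104926259 (plus), with no part in capitals.
Ces1e: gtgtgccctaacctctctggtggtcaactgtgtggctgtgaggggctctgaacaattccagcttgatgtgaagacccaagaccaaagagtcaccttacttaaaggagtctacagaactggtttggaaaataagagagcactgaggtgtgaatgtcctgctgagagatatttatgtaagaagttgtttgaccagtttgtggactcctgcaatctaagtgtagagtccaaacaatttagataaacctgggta
Ces2e: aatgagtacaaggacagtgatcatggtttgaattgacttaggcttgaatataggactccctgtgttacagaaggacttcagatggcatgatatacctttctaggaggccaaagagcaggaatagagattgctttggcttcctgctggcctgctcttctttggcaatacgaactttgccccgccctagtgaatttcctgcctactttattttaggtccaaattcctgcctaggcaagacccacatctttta

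In each window the motifs below were searched on both strands. The nuclear receptor site AGGTCA was held by 14.0% of all 32851 RefSeq promoters, and its variant AGTTCA by 11.8%. The forkhead site TGTTTAC was held by 3.17%, the promoter box TATAAA by 12.4% and the E-box CACGTG by 6.02%. The box CCAAT was held by 33.8%, and the antioxidant response element TGACNNNGC by 10.2%. Ces1e and Ces2e were the 2 of 7 members with no match to any of these motifs, which says only that these letters are not in these windows. CCAAT was found in Ces1c, Ces1g, Ces2a and Ces2c, AGGTCA in Ces2a and AGTTCA in Ces1b.

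**Figure D5:**
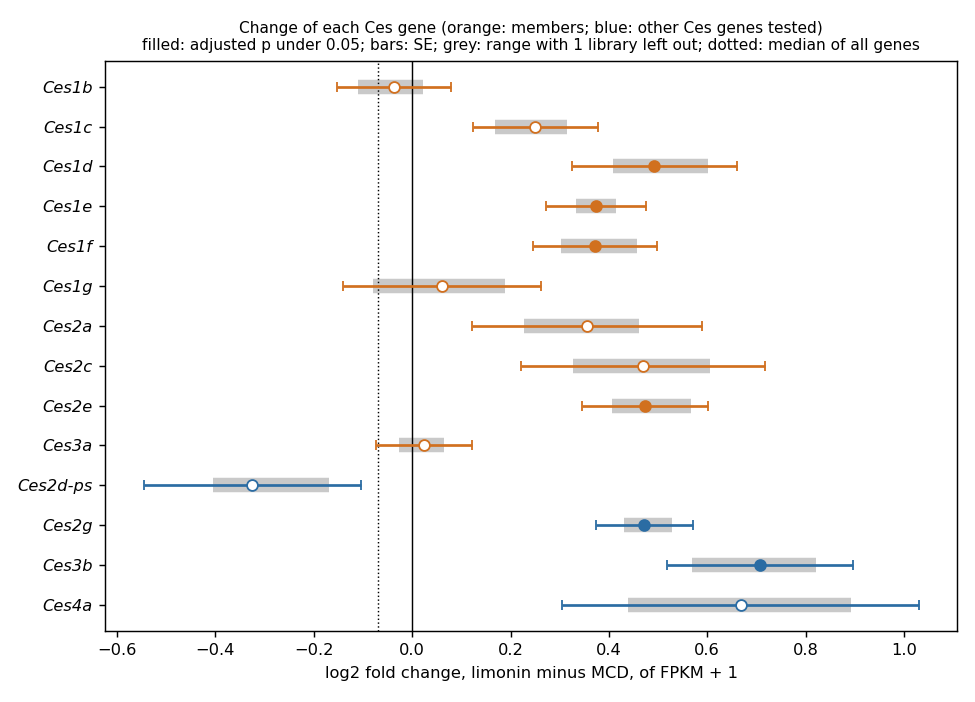
Log2 fold change (limonin minus MCD, horizontal axis) with its SE for the 10 members (orange) and the other tested Ces genes (blue), filled where the limma adjusted p is under 0.05. Grey bars give the range when 1 library is left out, and the dotted line the median of all tested genes. Ces1d, Ces1e, Ces1f and Ces2e of the members are filled, at 0.37 to 0.49, and Ces2g and Ces3b of the others, at 0.47 and 0.71.

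Among 17 tested neutral lipid hydrolases outside the family, 2 rose and 15 were not called, with a median log2 fold change of 0.03. Aadac, an ER esterase related to carboxylesterases, rose from 67.0 ± 6.66 (SD, n = 5) to 90.4 ± 10.2 FPKM (SD, n = 6). This gave a log2 fold change of 0.42 ± 0.10 (SE; limma adjusted p = 0.0106), with no overlap between groups. Pnpla8, a phospholipase, rose by 0.42 ± 0.14 (SE; limma adjusted p = 0.0415), a call lost without any 1 of MCD 1, 2, 3 or 5 or limonin 1, 2 or 4 (adjusted p up to 0.112). Lipa, the lysosomal acid lipase, and Abhd6, a monoacylglycerol lipase, were at 0.30 ± 0.14 and 0.22 ± 0.11 with limma adjusted p of 0.125 and 0.161.

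Of 17 tested genes of VLDL assembly, 3 rose, 1 fell and 13 were not called, with a median of 0.06. Mttp, the transfer protein that loads lipid onto apolipoprotein B, rose from 20.1 ± 0.997 (SD, n = 5) to 27.7 ± 2.92 FPKM (SD, n = 6). On the log2 scale the difference was 0.44 ± 0.09 (SE; limma adjusted p = 0.00444) with no overlap between groups. Sar1b, a GTPase of the vesicles that leave the ER, rose by 0.32 ± 0.09 (limma adjusted p = 0.0168), and Dgat2, which makes triacylglycerol, by 0.31 ± 0.11 (limma adjusted p = 0.0470). Apoa4, an apolipoprotein, fell from 3022 ± 1629 to 1137 ± 359.6 FPKM, by 1.28 on the log2 scale (limma adjusted p = 0.0258). The call on Sar1b was lost without MCD 2 (adjusted p = 0.0572), and that on Apoa4 without any 1 of MCD 1, 2 or 5 or limonin 2 or 6 (adjusted p up to 0.0676). Dgat2 kept its call only without MCD 4 or without limonin 1, with adjusted p up to 0.122 (limma) for the other 9 libraries.

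Of 13 tested hydrolases of foreign compounds outside the family, 1 rose (Aadac, above), 1 fell (Dpep1, a dipeptidase, by 0.54 on the log2 scale, limma adjusted p = 0.0366) and 11 were not called, with a median of 0.09. The call on Dpep1 was kept without MCD 1, MCD 5 or limonin 6 and lost without any of the other 8 libraries (limma adjusted p up to 0.0995). Bphl and Aox3, a prodrug-activating hydrolase and an aldehyde oxidase, were at 0.31 ± 0.11 and 0.32 ± 0.13 (SE) with limma adjusted p of 0.0598 and 0.0800.

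Of 24 tested target genes of the xenobiotic receptors PXR and CAR, which are known to induce Ces2a and other esterases, 7 rose and 17 were not called, with a median of 0.36. Cyp2c29 rose from 58.5 ± 17.8 (SD, n = 5) to 132 ± 27.2 FPKM (SD, n = 6). The log2 fold change was 1.19 ± 0.21 (SE; limma adjusted p = 0.0027), with no overlap between groups. Aldh1a1 (0.69 ± 0.15, limma adjusted p = 0.00729), Cyp3a13 (1.07 ± 0.27, limma adjusted p = 0.0148) and Cyp2c50 (0.85 ± 0.24, limma adjusted p = 0.0244) also rose, as did Abcc2, Cyp2c37 and Cyp2b9. The call on Cyp2c50 was lost without MCD 5 or limonin 2 (adjusted p up to 0.0579), on Abcc2 without any 1 of MCD 2, 3, 4 or 5 or limonin 4 (up to 0.0602), on Cyp2c37 without any 1 of MCD 1, 2 or 5 or limonin 2, 4 or 6 (up to 0.0687) and on Cyp2b9 without any 1 of MCD 1, 2 or 5 or limonin 1, 2, 4, 5 or 6 (up to 0.112). The most used reporters of the receptors, named after their values were seen, were not called, with Cyp3a11 at 0.06 (limma adjusted p = 0.788) and Cyp2b10 at 0.39 (limma adjusted p = 0.219).

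Of 14 tested receptors and factors known to control Ces genes, 2 rose and 12 were not called, with a median of 0.08. Ppara, the fatty acid receptor, rose from 4.48 ± 0.591 (SD, n = 5) to 8.77 ± 4.14 FPKM (SD, n = 6). This gave a log2 fold change of 0.75 ± 0.21 (SE; limma adjusted p = 0.0219). Hnf4a, a factor that defines hepatocytes and is also in the hepatocyte list, rose by 0.45 ± 0.14 (limma adjusted p = 0.0344). Ppara lost its call without MCD 2 (adjusted p = 0.0526), and Hnf4a without any 1 of MCD 1, 2, 3 or 5 or limonin 2, 3 or 4 (adjusted p up to 0.0732). Cebpa, a factor of hepatocyte differentiation, was at 0.33 ± 0.13 with a limma adjusted p of 0.0746. PXR itself (Nr1i2, -0.08, limma adjusted p = 0.643) and CAR (Nr1i3, -0.33, limma adjusted p = 0.313), named after their values were seen, were not called.

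Of 12 tested ER retention receptors and chaperones, 1 fell and 11 were not called, with a median of -0.0021. The gene that fell was Kdelr3, a KDEL receptor, at 5.57, 2.85, 1.95, 1.33 and 3.91 FPKM in MCD 1 to 5. Its limonin values ran from 0.286 to 2.44 FPKM, with a median of 0.735. Only limonin 3 reached the MCD range. On the log2 scale the difference was -1.08 ± 0.30 (SE; limma adjusted p = 0.0213). The call was lost without MCD 2 (limma adjusted p = 0.0539) and without both limonin 5 and 6 (0.0673). It was also lost with no filter on low values (0.0570) and with replicate number as a block (0.106). Kdelr1, at 61.4 ± 2.98 FPKM in MCD, and Kdelr2, both named after their values were seen, were not called (-0.07 and -0.16, limma adjusted p = 0.635 and 0.321). The chaperone cofactor Sdf2l1 was at -0.43 ± 0.16, Pdia4 at 0.18 ± 0.11 and Hspa5 at 0.21 ± 0.13, with limma adjusted p of 0.0614, 0.244 and 0.268.

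The genes outside the family whose log2(FPKM + 1) followed the mean of the scaled members most closely over the 11 libraries were Tcte3 (Pearson r = 0.927, and 0.899 without limonin 6), Oaz1-ps (0.901 and 0.828) and Lrrc46 (0.892 and 0.869). Genes with Gm and Rik names were left out. These coefficients were picked as the highest and share the libraries' composition, so they are a description. Tcte3 was low, at 0.0434 to 1.21 FPKM in MCD and 0.516 to 3.29 FPKM in limonin. For single members the closest genes were Hsd17b6 for Ces1d (0.912, and 0.930 without limonin 6), Retsat for Ces1e (0.890 and 0.888), Etnppl for Ces1f (0.891 and 0.869), Serpina1c for Ces2a (0.957 and 0.945) and Aldh2 for Ces2e (0.877 and 0.818). Ces1b was closest to Cdc42ep4 (0.787, and 0.915 without limonin 6) and Ces3a to Ndufaf1 (0.786 and 0.765).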

How the data were processed

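Poly(A) RNA of mouse liver was sequenced as 11 libraries (5 MCD, 6 limonin). The submitters' processing notes name cutadapt 1.9, HISAT2 2.0.4, StringTie 1.3.4d and, though the gene identifiers belong to mouse, the human build GRCh38. Sequences and coordinates here come instead from GENCODE M21 on GRCm38 and from RefSeq promoters. Libraries carried dUTP in the second strand, per the labels' protocols; the use of strand in quantification is not given in sources used here. Levels were deposited by the authors as FPKM for each library. Per the file headers, the same table has columns for a ratio (fold) of group means, its log2, a p-value and a q-value. The authors' test is likewise not given. Adjusting the deposited p-values by Benjamini-Hochberg returned the deposited q, and the mark matched q under 0.05 with at least 1.5-fold, in all 31280 genes.

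FPKM hold no fragment counts, so no counting intervals are given, and depth was read from the smallest FPKM steps. Of the genes, 10489 reached 1 FPKM in 5 or more libraries and were compared on log2(FPKM + 1) with limma 3.58.1 (R 4.3.3; trend, robust, two-sided), adjusted by Benjamini-Hochberg over all of them at 0.05. The procedure was tested on simulated data. Coding sequences were compared with Biopython 1.88; planned protein features were read from coding sequences. Members and 18 gene lists (7 pathway, 11 cell type) were chosen with earlier results of these data known. Named were all members, the other tested Ces genes, up to 4 genes per pathway list with the smallest p, further called genes of 1 list, and the 3 genes closest to the members' mean; 1 gene and 1 motif so chosen are not reported here. Alternatives were other filters, pseudocounts, scalings, variance models, a replicate block and omitted libraries.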

Additional observations from a re-analysis of the deposited data

Results flagged for a closer look

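In 86 pairs of a gene and a group, 6 had a library far from the others of its group by Dixon's criterion, which chance passes in about 1 of 20 groups. Of the 20 pairs for the carboxylesterases, 0 were among them. The criterion takes each gene alone, so it cannot show a library that is moderately high over many genes. Limonin 6 was the highest library for 9 of the 10 members. Abhd6 was at 14.4 FPKM in limonin 1, with 19.0 to 21.5 in the other limonin libraries. Sar1b was at 77.1 FPKM in limonin 4, with 61.9 to 66.4 in the others. Ppara was at 16.8 FPKM in limonin 2, with 4.93 to 8.70 in the others. Cyp3a13 was at 50.8 FPKM in limonin 2, with 13.1 to 26.0 in the others. Kdelr3 was at 2.44 FPKM in limonin 3, with 0.286 to 1.06 in the others. Tcte3 was at 1.21 FPKM in MCD 3, with 0.0434 to 0.269 in the other MCD libraries.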

How the results depend on the processing

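The 4 carboxylesterases called higher became 1 with no filter on low values, 0 with the replicate block, 1 without both limonin 5 and 6, 0 without both MCD 4 and 5, 0 after scaling to hepatocyte markers and 0 by the authors' deposited mark, and 1 to 3 when each library was left out in turn. At an unadjusted p under 0.05, limma gave 4 members higher with the block, beside 12.0% of all tested genes, and 3 without MCD 4 and 5, beside 10.5%. No other library is numbered 6, so the block gives limonin 6 a term of its own. The members' log2 fold changes with the block therefore equal those without limonin 6. The block and that omission are not separate checks. In the order no filter, replicate block, without limonin 5 and 6, without MCD 4 and 5, and hepatocyte scaling, the log2 fold change no longer past the threshold was 0.49, 0.41, 0.41, 0.41 and 0.25 for Ces1d and 0.37, 0.33, 0.35, 0.37 and 0.13 for Ces1f. For Ces1e it was 0.35 with the block, 0.30 without limonin 5 and 6, 0.40 without MCD 4 and 5 and 0.14 after hepatocyte scaling. For Ces2e it was 0.47 with no filter, 0.41 with the block, 0.47 without MCD 4 and 5 and 0.23 after hepatocyte scaling. The authors' deposited log2 ratios were 0.51 for Ces1d, 0.41 for Ces1e, 0.39 for Ces1f and 0.50 for Ces2e. Their deposited q was under 0.05, and the mark was missing because the change was under 1.5-fold. Over the 11 omissions log2 fold changes ran from 0.41 to 0.60 for Ces1d, 0.33 to 0.42 for Ces1e, 0.30 to 0.46 for Ces1f, -0.11 to 0.023 for Ces1b, -0.0789 to 0.19 for Ces1g and -0.0276 to 0.0641 for Ces3a. Ces1c passed the threshold after scaling to equal sums (0.37). Other named genes that passed it were Bphl (median-ratio, quantile and equal-sum scaling, library weights, without MCD 4 and 5), Aox3 (the first 4 of these), Lipa (median-ratio), Cebpa and Oaz1-ps (equal sums), Sdf2l1 (hepatocyte scaling) and Ces4a (without MCD 4 and 5). With 1 library left out, Abhd6 and Bphl passed in 1 of 11 omissions and Aox3, Cebpa and Sdf2l1 in 2. Among named genes outside the 10, limma calls were lost (adjusted p 0.0503 to 0.197) with no filter for Ces3b, Pnpla8, Apoa4, Dgat2, Dpep1, Ppara, Hnf4a, Cyp2c50, Abcc2, Cyp2c37, Cyp2b9, Kdelr3 and Tcte3. The block ended those on Ces3b, Pnpla8, Sar1b, Apoa4, Dgat2, Hnf4a, Cyp3a13 (0.0569), Abcc2, Cyp2b9, Kdelr3 (0.106) and Tcte3. Omitting limonin 5 and 6 ended those on Ces3b, Apoa4, Dgat2, Cyp2c37, Cyp2b9, Kdelr3 and Tcte3, and omitting MCD 4 and 5 those on Pnpla8, Sar1b, Dgat2, Ppara, Hnf4a, Cyp2c50, Abcc2 and Tcte3. Dpep1 also lost its call under median-ratio, quantile and equal-sum scaling and library weights, Apoa4 under equal sums, and Dgat2 and Cyp2b9 under library weights. Signs turned for Ces1b after median-ratio scaling (0.0617) and equal sums (0.0826), for Ces1g with the block (-0.0789), without limonin 5 and 6 (-0.13), without MCD 4 and 5 (-0.0006) and after hepatocyte scaling (-0.18), for Ces3a with the block (-0.002) and after hepatocyte scaling (-0.22), and after hepatocyte scaling for Abhd6 (-0.0115), Pdia4 (-0.0675) and Hspa5 (-0.0403). Genes called higher numbered 759, and 412 with no filter, 1470 after median-ratio scaling, 1813 after quantile normalization, 363 with the block, 1347 without limonin 5 and 6, 486 without MCD 4 and 5, 151 after hepatocyte scaling, 1168 by the authors' deposited mark and 328 to 1097 over the omissions. Genes called lower numbered 1957, and 900 with a filter at 5 FPKM, 1112 after equal sums, 893 with the block, 3375 after hepatocyte scaling and 1080 to 2134 over the omissions. Apart from the construction of the alternatives (fewer samples, more genes tested), the cause was not tested. Whether the replicate numbers pair the libraries is not given in the labels. Same-numbered libraries correlated at -0.235 to 0.204, 1 of 5 pairs was closest to its own number, and limonin 6 has no partner. So few pairs do not settle whether the libraries are paired. FPKM carry no counts, so the counting error of low genes such as Ces4a is unknown.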
